A study of Mus musculus with 16 samples.

Results

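Axon guidance genes encode the secreted and membrane-bound signals that steer growing axons and migrating cells, and the receptors that read them. They were chosen by name from a table of RNA levels in sorted astrocytes, the star-shaped glial cells of brain and spinal cord, and selected on their measured level. The names cover semaphorins, plexins, neuropilins, netrins with Dcc and the Unc5 receptors, Slits, Robos, ephrins and Eph receptors. The name rule found 74 of 39171 features, and 56 of them reached 1 FPKM (fragments per kilobase of transcript and per 1e6 fragments mapped) in at least 4 of 16 libraries. Of the 56, 13 would not have passed without the libraries of the group in which they were highest. These are Efna5, Efnb1, Ntn4, Sema3b, Sema3c, Sema3d, Sema3e, Sema4c, Sema6c, Sema7a, Slit3, Unc5b and Unc5cl. For such genes the expression rule favours a difference between groups, so their values are given with no test. Unc50 and Unc5cl, which the name rule takes in, are not guidance receptors.

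The astrocytes came from 4 C57BL/6 mice at postnatal day 15, heterozygous for an IL-33-mCherry reporter of the cytokine gene Il33 and positive for Aldh1l1-GFP, a reporter of an astrocyte gene. From each mouse, IL-33 reporter positive and negative cells of thalamus and of spinal cord were isolated by flow cytometry, which gave 4 groups of 4 libraries. All groups carried both reporters. The sources used here do not say how GFP entered the sort.

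Semaphorins signal through plexins, with neuropilins as co-receptors for most of the secreted class. Netrins attract axons through Dcc and repel them through Unc5 receptors, Slits repel through Robos, and ephrins signal in both directions with Eph receptors on the neighbouring cell. Glial cells both make and receive such signals.

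The libraries summed to between 984986 and 2344483 FPKM, with 13260 to 14731 features at 1 FPKM or more, and their sequencing depth is unknown. In thalamus the negative libraries summed to 1402061 to 2344483 FPKM and the positive ones to 1092783 to 1283876 FPKM. In spinal cord the sums were 1233151 to 2233820 and 984986 to 1182121 FPKM. Every negative library was thus above every positive one of its region, and the part of this in the gate results was not tested. Il33 itself averaged 18.6 ± 6.01 FPKM in negative thalamus libraries against 27.4 ± 3.41 in positive ones (SD, n = 4), and 24.6 ± 7.93 against 27.9 ± 3.49 in spinal cord. Neither difference passed, with a limma adjusted p of 0.0736 and 0.559.

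The astrocyte label was checked against 10 astrocyte markers, none of which averaged under 1 FPKM in any group. They summed to 4142 to 5027 FPKM in negative thalamus, 4343 to 5174 in positive thalamus, 5273 to 6851 in negative spinal cord and 7937 to 8710 in positive spinal cord libraries. In the thalamus gate 4 were called higher and 1 lower, and in the spinal cord gate 5 were called higher. Markers of other cell types were present as well and moved with the gate. The 10 oligodendrocyte markers summed to 435 to 919.6, 75.9 to 111, 3251 to 3446 and 155 to 166 FPKM in the same order of groups, and 9 of 10 and 10 of 10 were called lower in positive thalamus and spinal cord libraries.

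Precursor markers summed to 248 to 353, 146 to 235, 649.6 to 709 and 223 to 271 FPKM, with 4 of 7 called lower in each region. Ependymal markers, from the ciliated cells that line the ventricles, summed to 240.2 to 448, 3.39 to 4.97, 73.7 to 95.6 and 2.98 to 5.87 FPKM, and all 8 were called lower in both regions. Under 1 FPKM on average were 8 of 8 ependymal markers in positive thalamus and 6 of 8 in positive spinal cord libraries, and 2 of 10 and 3 of 10 oligodendrocyte markers. Oligodendrocyte RNA was thus detected in positive libraries too.

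Neuron markers summed to 39.4 to 86.5, 9.82 to 14.6, 29.4 to 55.5 and 18.2 to 27.4 FPKM, with 3 of 6 and 1 of 6 of those tested called lower. Endothelial and mural markers summed to 8.99 to 52.2, 6.07 to 7.81, 20.4 to 43.4 and 7.46 to 10.2 FPKM, with 2 of 8 and 3 of 8 called lower. Microglia markers summed to 16.8 to 30.9, 17.5 to 26.7, 14 to 29.9 and 16.4 to 21.9 FPKM, with 1 of 5 of those tested called lower in each region, and 1 of the 8 was at 0 in every negative spinal cord library. The part of these cells in the gate and region results was not tested. In bulk libraries, fewer cells of a type and less RNA per cell cannot be told apart. The marker lists were not screened for genes that would not have passed the expression rule without their highest group. Their counts of calls are therefore descriptions. The plot of marker sums shows each library.

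**Figure D1:**
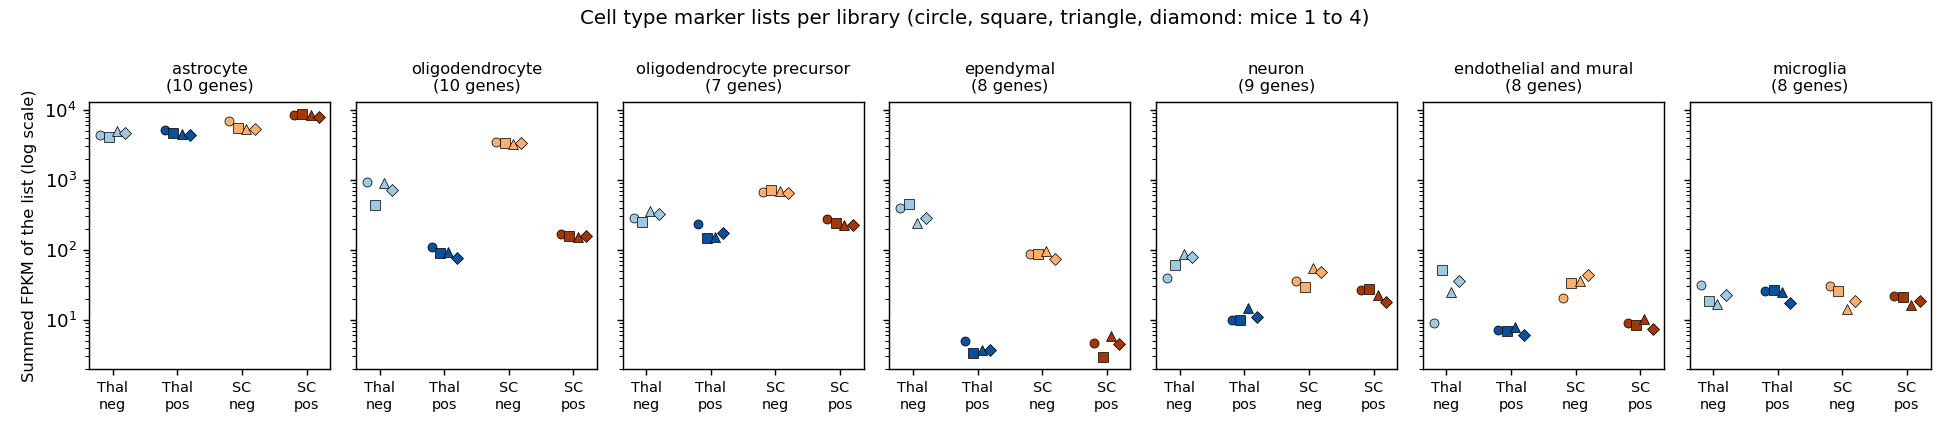
Summed FPKM of 7 cell type marker lists in each library, on a log scale, for the negative and positive gates of thalamus and spinal cord. Each point is a library. Sums of all lists but astrocyte and microglia were lower in every positive library than in every negative library of the same region. Microglia sums overlapped between the gates of both regions. Astrocyte sums overlapped between the thalamus gates and were higher in every positive than in every negative spinal cord library.

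The gate comparison asks which guidance genes differ between IL-33 reporter positive and negative astrocytes. Sema5a, its receptor gene Plxnb3, Efnb3, Ephb1, Sema6a and Slit2 were lower in positive libraries of both regions, and Sema4b, Ephb3 and Epha2 were higher in both. Of the 56 members 19 were called in thalamus (33.9%), 6 higher and 13 lower, at a limma adjusted p under 0.05, where 25.2% of the 16340 features tested were called, 11.6% higher and 13.6% lower. Spinal cord gave 23 calls (41.1%), 6 higher and 17 lower, against 19.6% of all features, 9.04% higher and 10.5% lower. These calls include 5 genes in thalamus and 6 in spinal cord that would not have passed the expression rule without their highest group. Unc50, which is not a guidance receptor, is among the 6 higher in spinal cord. It had a log2 fold change of 0.63 (limma adjusted p = 0.0288), and the call was lost in 8 of 26 other settings. The median log2 fold change of the members was -0.28 in thalamus and -0.48 in spinal cord, beside 0.06 and 0.09 over all features. These medians are descriptions over all 56 members. They include the 13 that would not have passed without their highest group, which for most of them was a negative one. After median-of-ratios rescaling, 53.3% of all features called in thalamus were higher, against 45.9% before, and the members were 6 higher and 12 lower.

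The gate comparisons of the regions share no library in their means, although they share the mice. They also share 1 estimate of the spread of each gene, taken from all 16 libraries. Lower in both were 8 members, 61.5% of the 13 in thalamus and 47.1% of the 17 in spinal cord, beside 47.4% and 61.4% over all features called lower. Of these, Sema3d and Sema3e would not have passed the expression rule without their highest group. Higher in both were 3, which is 50% of the 6 in each region, beside 36.5% and 46.7% over all features called higher, and Dcc was called in opposite directions. With the mouse as a block the spinal cord calls of Epha2 and Dcc were lost. The members higher in both were then Ephb3, Sema4b and Sema4a, and 0 members were called in opposite directions. Without mice 1 to 4 the number of calls was 15, 11, 12 and 11 in thalamus and 17, 16, 13 and 17 in spinal cord. These fits have fewer libraries under the same filter of 4, which can leave members out. The share of all features called in them is not given here. Such counts describe the fits and are no result about the members. The plot of gate differences shows every member by family.

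**Figure D2:**
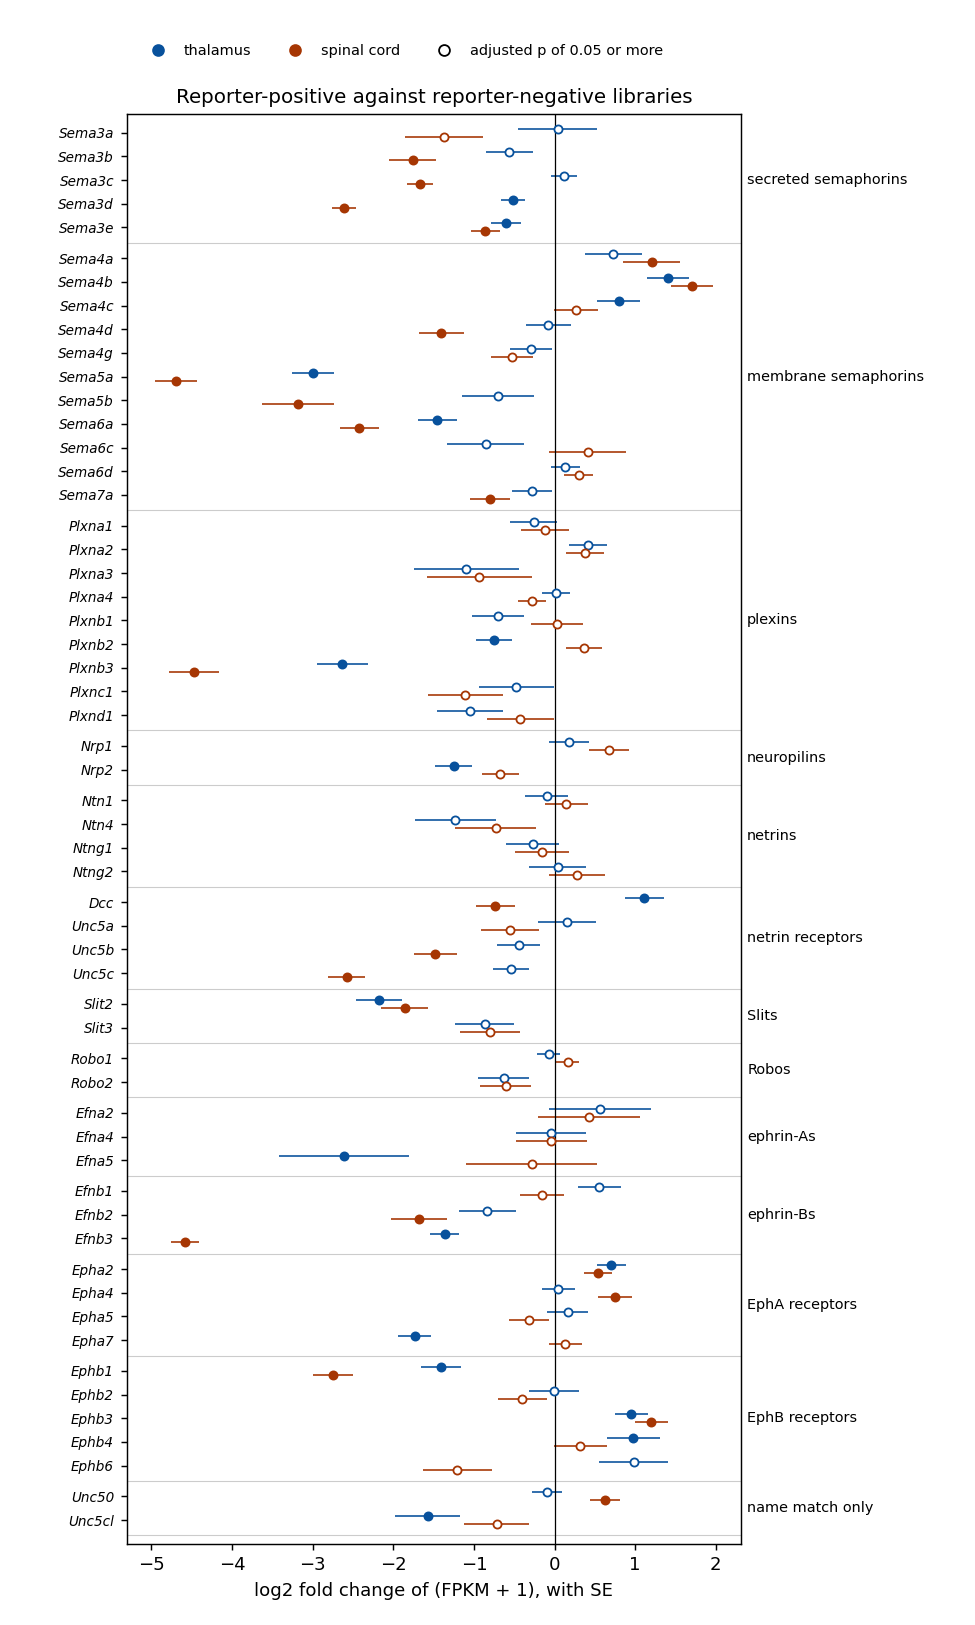
Log2 fold change of (FPKM + 1), positive against negative libraries, with its SE for the 56 members by family in thalamus and spinal cord (n = 4 libraries a group). Filled points have a limma adjusted p under 0.05. The points of the 13 members that would not have passed the expression rule without their highest group are descriptions. Sema5a, Plxnb3 and Efnb3 lay at -4.70, -4.47 and -4.58 in spinal cord, and Sema4b at 1.71.

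Among the membrane semaphorins, Sema5a, which carries thrombospondin repeats and can attract or repel axons, had the largest gate difference of the tested members in both regions. In thalamus it was at 24.2, 13.2, 9.13 and 9.11 FPKM in the negative libraries of mice 1 to 4, the order used throughout, and at 0.928, 0.564, 0.846 and 0.634 FPKM in the positive ones. Negative spinal cord libraries held 45.9, 62, 38 and 36.1 FPKM and positive ones 0.678, 0.778, 0.828 and 0.733 FPKM. All positive libraries lay below 1 FPKM and far under all negative ones. The log2 fold change was -2.99 ± 0.26 (SE, limma adjusted p = 2.01e-06) in thalamus and -4.70 ± 0.26 (SE, limma adjusted p = 1.46e-08) in spinal cord.

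Plxnb3, the plexin that binds Sema5A, had the same order of groups. Its level was 2.76, 6.06, 10.2 and 13 FPKM in negative and 0.325, 0.161, 0.272 and 0.433 FPKM in positive thalamus libraries. For spinal cord the negative values were 22.8, 28.1, 34.7 and 27.7 FPKM and the positive ones 0.252, 0.54, 0.357 and 0.119 FPKM. The gates did not overlap in either region. In GRCm38 the annotation places Sema5a at chr15:32244810-32696341 and Plxnb3 at chrX:73757090-73772514, both on the plus strand, and both code for protein. The Plxnb3 log2 fold change was -2.63 ± 0.32 (SE, limma adjusted p = 3.79e-05) in thalamus and -4.47 ± 0.32 (SE, limma adjusted p = 1.91e-07) in spinal cord. Of the 9 plexins, Plxnb2 was also lower in thalamus, at -0.75 ± 0.23 (SE, limma adjusted p = 0.0259), with gates that overlapped. That call was lost without mouse 2, 3 or 4, without the negative thalamus library of mouse 2 or 4 or the positive thalamus library of mouse 3 and in a fit of the compared groups alone. The other 7 plexins passed in neither region.

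The DNA before the start sites of Sema5a and Plxnb3, which fell together, is shown with that of Ephb3, which rose in both regions. Each stretch is 200 bases long and ends 51 bases before the RefSeq start in GRCm38.p6, plus strand. Capitals mark ACAAAG, a core of SOX factor motifs, and CAGCTG, an E box, both searched on both strands. The Sema5a window (chr15:32244563-32244762) overlaps an exon of the noncoding Snhg18, and no exon was found in the windows of Plxnb3 (chrX:73756853-73757052) and Ephb3 (chr16:21204545-21204744).
Sema5a: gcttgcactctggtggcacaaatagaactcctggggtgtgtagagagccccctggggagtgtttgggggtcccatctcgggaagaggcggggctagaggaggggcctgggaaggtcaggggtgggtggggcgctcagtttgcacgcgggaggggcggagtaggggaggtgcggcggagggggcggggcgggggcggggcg
Plxnb3: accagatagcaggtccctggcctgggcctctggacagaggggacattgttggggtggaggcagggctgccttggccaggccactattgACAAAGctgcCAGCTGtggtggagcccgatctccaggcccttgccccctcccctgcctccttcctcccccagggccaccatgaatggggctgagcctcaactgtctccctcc
Ephb3: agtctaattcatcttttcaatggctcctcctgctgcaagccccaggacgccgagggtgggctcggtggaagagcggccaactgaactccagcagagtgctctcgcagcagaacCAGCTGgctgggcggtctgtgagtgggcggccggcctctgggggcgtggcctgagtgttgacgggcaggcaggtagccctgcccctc
The Plxnb3 window holds 1 match of each motif, the Ephb3 window holds 1 CAGCTG, and these letters are not in the Sema5a window. ACAAAG occurs in 13.6% and CAGCTG in 10.3% of all 32851 windows of this length. In the 62 windows of the 49 members with an entry, the shares are 11.3% and 8.06%. The windows of Sema5a, Plxnb3 and Ephb3 hold 70.5%, 65% and 65% G and C.

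Sema4b moved the other way. This transmembrane semaphorin was at 12.1, 22.2, 33.2 and 34.7 FPKM in negative and at 70.2, 58.3, 58.6 and 71.7 FPKM in positive thalamus libraries. Spinal cord libraries held 14.7, 15.9, 20.8 and 18.7 FPKM in the negative gate and 57.3, 67.1, 64.5 and 48.9 FPKM in the positive gate. Every positive library was above every negative one of its region. The log2 fold change was 1.40 ± 0.26 (SE, limma adjusted p = 0.00133) in thalamus and 1.71 ± 0.26 (SE, limma adjusted p = 0.0003) in spinal cord.

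Sema4a, a relative known for roles in immune cells and retina, was at 11.9, 10.5, 22.8 and 34.9 FPKM in negative and 36.7, 37, 44.5 and 53.4 FPKM in positive spinal cord libraries. These values did not overlap, and the log2 fold change was 1.20 ± 0.35 (SE, limma adjusted p = 0.0255). The call was lost without mouse 1, 2 or 3 and without the negative spinal cord library of mouse 1 or 2 or the positive spinal cord library of mouse 3 or 4, with a limma adjusted p of up to 0.12. Thalamus libraries overlapped, at 19.3, 10.1, 22.1 and 28 FPKM and 36.3, 24.2, 36.9 and 31.1 FPKM, with a limma adjusted p of 0.141, which was 0.0461 with the mouse as a block. Exons of Sema4a overlap those of Mir7011.

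Sema5b, the close relative of Sema5a, was lower in positive spinal cord libraries, with 22.3, 13.9, 12.3 and 15.5 FPKM against 0.933, 0.733, 0.938 and 0.744 FPKM. There its log2 fold change was -3.18 ± 0.45 (SE, limma adjusted p = 0.000158). Negative thalamus libraries spread over 21.4, 107, 61.4 and 15.2 FPKM and overlapped the positive ones at 20.4, 30.7, 23.2 and 20.4 FPKM (limma adjusted p = 0.269). The direct test of whether the gate difference differed between regions gave -2.48 ± 0.63 (SE, limma adjusted p = 0.0544).

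Other membrane semaphorins were named after their values were seen. Sema6d, the most abundant member, averaged 114 ± 31.2 and 123 ± 15 FPKM in negative and positive thalamus libraries and 143 ± 8.08 and 176 ± 7.87 FPKM in those of spinal cord (SD, n = 4). It passed in neither gate comparison. Sema6a, a transmembrane ligand of A-type plexins, averaged 95.4 against 32.3 FPKM and 130.3 against 23 FPKM, with log2 fold changes of -1.45 ± 0.24 (SE, limma adjusted p = 0.000598) and -2.42 ± 0.24 (SE, limma adjusted p = 5.72e-06). Sema4d, a ligand of Plxnb1, fell in spinal cord from 23.9 to 7.98 FPKM, at -1.40 ± 0.28 (SE, limma adjusted p = 0.00243), and had a limma adjusted p of 0.863 in thalamus. Sema4g passed in neither region. Sema4c, Sema6c and Sema7a are among the 13, with group means of 0.125 to 1.69, 0.0903 to 3.06 and 0.407 to 1.8 FPKM.

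Of the 5 secreted semaphorins, 4 would not have passed the expression rule without the negative spinal cord libraries. Sema3d was at 5.53, 7.36, 5.43 and 4.85 FPKM there, at 0.683, 0.39, 0.793 and 0.413 FPKM in negative thalamus libraries and at 0.0651, 0.0523, 0.137 and 0.117 FPKM and 0.0962, 0.0554, 0.104 and 0.148 FPKM in positive ones. Sema3b, Sema3c and Sema3e averaged 3.3, 3.72 and 1.14 FPKM in negative and 0.155, 0.467 and 0.167 FPKM in positive spinal cord libraries. No test is given for these 4. Sema3a, a repellent that signals through Nrp1 and A-type plexins, was at 4.46, 11.5, 2.42 and 21.8 FPKM in negative and 2.04, 1.39, 1.85 and 4.79 FPKM in positive spinal cord libraries. The gates overlapped (limma adjusted p = 0.0627, and 0.0261 with the mouse as a block).

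Sema3a, Sema3c, Sema3d and Sema3e all lie on chromosome 5, within 5.35 Mb between 12383385 and 17730268 of GRCm38. In thalamus Sema3a was low in every library, at 0.214, 0.542, 0.492 and 0.451 FPKM and 0.201, 0.211, 0.191 and 1.6 FPKM. The expression threshold ran through genes of such levels. Ntn4, Sema3c, Sema3d, Sema3e and Sema7a reached 1 FPKM in exactly 4 libraries, with highest values of 11.4, 4.58, 7.36, 1.75 and 2.43 FPKM. Slit1, Sema4f and Robo4 reached it in 3, with highest values of 6.59, 3.47 and 2.86 FPKM.

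Nrp2, a co-receptor of secreted semaphorins, averaged 8.74 ± 3.33 FPKM in negative and 2.94 ± 0.602 FPKM in positive thalamus libraries (SD, n = 4), a log2 fold change of -1.25 ± 0.23 (SE, limma adjusted p = 0.00129). Its limma adjusted p in spinal cord was 0.0532. Nrp1, the co-receptor of Sema3A and of VEGF, averaged 16.9 and 18.3 FPKM in thalamus and 8.53 and 13.6 FPKM in spinal cord and passed in neither gate comparison, although its limma adjusted p in spinal cord was 0.0279 with the mouse as a block. Plxnb1, the receptor of Sema4D, had group means of 19.9 to 35.3 FPKM and a limma adjusted p of 0.131 and 0.961. Nrp1, Nrp2 and Plxnb1 were named after their values were seen.

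Netrin receptors differed from each other. Dcc, the attractive receptor, was at 0.88, 1.22, 2.21 and 1.47 FPKM in negative and 4.72, 4.81, 3.96 and 3.37 FPKM in positive thalamus libraries, with no overlap. It rose there, with a log2 fold change of 1.11 ± 0.24 (SE, limma adjusted p = 0.00427). Negative spinal cord libraries held 1.22, 0.978, 0.345 and 2.22 FPKM and positive ones 0.241, 0.212, 0.152 and 0.437 FPKM, so that the gates overlapped while each mouse had the lower value in its positive library. That change was -0.73 ± 0.24 (SE, limma adjusted p = 0.0475), with a limma adjusted p of 0.0723 with the mouse as a block. The call was lost in 19 of 24 other settings, with a limma adjusted p from 0.0104 to 0.175 over all of them.

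Unc5c, a repellent netrin receptor, was at 6.99, 12.3, 14.1 and 13.6 FPKM in negative and 0.863, 1.03, 1.28 and 1.15 FPKM in positive spinal cord libraries. The gates were far apart, at -2.58 ± 0.23 (SE, limma adjusted p = 1.78e-06). In thalamus the values were 7.2, 4.8, 4.36 and 7.09 FPKM and 2.91, 3.07, 4.26 and 4.53 FPKM, with overlap and a limma adjusted p of 0.0986. Exons of Unc5c overlap those of the predicted gene Gm15688, so its values are uncertain where reads were not told apart by strand. Exons of other genes also overlap those of Unc5a, Ntng2, Nrp1, Plxna1, Plxna4, Plxnb1, Plxnc1, Sema4c and Efna4. Unc5a passed in neither gate comparison, and Unc5b, one of the 13, averaged 2.55 FPKM in negative and 0.261 FPKM in positive spinal cord libraries. Of the 3 netrin genes tested, Ntn1, Ntng1 and Ntng2, limma called 0 in either gate comparison, with 0 at an unadjusted p under 0.05 in each. Ntn4, one of the 13, had group means of 0.177 to 3.73 FPKM.

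Slit2, an axon repellent that binds Robo receptors, was the most abundant secreted ligand among the members described by library. It was at 69.5, 85.3, 54.4 and 34.9 FPKM in negative and 13.6, 12.4, 16.7 and 7.46 FPKM in positive thalamus libraries. Spinal cord libraries held 42.6, 21.9, 27.9 and 26.1 FPKM and 6.52, 6.52, 9.33 and 6.71 FPKM. Positive libraries lay under all negative ones of their region, at -2.17 ± 0.29 (SE, limma adjusted p = 9.15e-05) and -1.86 ± 0.29 (SE, limma adjusted p = 0.000355). Slit3, one of the 13, had group means of 0.304 to 1.74 FPKM. Of the receptor genes Robo1 and Robo2, limma called 0 in either gate comparison, with 0 at an unadjusted p under 0.05, and their log2 fold changes were -0.07 ± 0.14 and -0.63 ± 0.32 in thalamus and 0.16 ± 0.14 and -0.60 ± 0.32 in spinal cord.

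Efnb3 encodes a transmembrane ephrin that acts as a midline barrier for spinal axons. It was at 56.1, 47.9, 53.4 and 52.5 FPKM in negative and 1.26, 1.06, 1.2 and 1.41 FPKM in positive spinal cord libraries. Negative thalamus libraries held 5.52, 3.38, 4.72 and 4.31 FPKM and positive ones 1.14, 1.59, 1.28 and 0.573 FPKM. Negative spinal cord libraries thus stood above all others, and positive libraries of both regions were similarly low. The log2 fold change was -1.36 ± 0.18 (SE, limma adjusted p = 7.93e-05) in thalamus and -4.58 ± 0.18 (SE, limma adjusted p = 3.13e-10) in spinal cord. Efnb2, named after its values were seen, fell in spinal cord at -1.68 ± 0.35 (SE, limma adjusted p = 0.00351), from 4.82 to 0.688 FPKM. Efnb1, one of the 13, had group means of 0.536 to 1.44 FPKM.

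Efna5, a lipid-anchored repellent ligand and one of the 13, is described only. Negative thalamus libraries held 53.2, 3.02, 6.5 and 1.72 FPKM and positive ones 0.469, 0.219, 0.475 and 0.207 FPKM, so that the library of mouse 1 carried most of the level. In negative spinal cord libraries the library of mouse 3 was at 7.77 FPKM and the others were at 0.21 FPKM or less. Efna2 and Efna4 passed in neither region.

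Eph receptors, the receptor tyrosine kinases that bind ephrins, moved in both directions. Ephb3 was at 4.22, 3.92, 7.63 and 4.42 FPKM in negative and 11.9, 12.1, 9.67 and 8.3 FPKM in positive thalamus libraries. Spinal cord libraries held 2.03, 2.21, 2.56 and 1.56 FPKM and 6.43, 6.98, 6.06 and 4.93 FPKM. The gates did not overlap within a region, and the log2 fold changes were 0.95 ± 0.20 (SE, limma adjusted p = 0.0038) and 1.20 ± 0.20 (SE, limma adjusted p = 0.00076). Ephb1, another receptor of B-type ephrins, averaged 5.09 against 1.27 FPKM and 10.6 against 0.672 FPKM, at -1.41 ± 0.25 (SE, limma adjusted p = 0.000873) and -2.74 ± 0.25 (SE, limma adjusted p = 1.95e-06). It was named after its values were seen, and its exons overlap those of the predicted gene Gm26846.

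Ephb4, known as the venous receptor of ephrin-B2, was at 0.414, 0.619, 1.15 and 0.961 FPKM in negative and 2.84, 1.33, 2.47 and 3.67 FPKM in positive thalamus libraries. These did not overlap, at 0.98 ± 0.33 (SE, limma adjusted p = 0.0427). The call was lost in 14 of 25 other settings, with a limma adjusted p from 0.0252 to 0.155 over all of them, and exons of Ephb4 overlap those of Zan. Spinal cord libraries overlapped, at 0.937, 3, 0.68 and 3.95 FPKM and 2.1, 2.11, 2.62 and 3.52 FPKM (limma adjusted p = 0.543). Ephb2 and Ephb6 passed in neither gate comparison.

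Epha7, a receptor of A-type ephrins, was lower in positive thalamus libraries, with 15.3, 9.42, 6.22 and 7.56 FPKM against 1.9, 2.13, 2.21 and 1.97 FPKM. Its log2 fold change there was -1.73 ± 0.20 (SE, limma adjusted p = 3.37e-05). Spinal cord libraries all lay close together, at 7.48, 6.98, 8.09 and 6.86 FPKM in the negative and 7.85, 8.22, 8.67 and 7.84 FPKM in the positive gate (limma adjusted p = 0.698).

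Epha4, which binds both ephrin classes, was at 7.42, 10.2, 8.06 and 12.5 FPKM in negative and 16.9, 15.8, 15.9 and 17.3 FPKM in positive spinal cord libraries. It rose there without overlap, at 0.75 ± 0.21 (SE, limma adjusted p = 0.0193), a call lost without mouse 1 or 3 and without the negative spinal cord library of mouse 1 or 3 or the positive spinal cord library of mouse 4. Thalamus libraries held 5.95, 3.2, 4.74 and 4.27 FPKM and 4.9, 3.57, 4 and 6.5 FPKM (limma adjusted p = 0.886). Epha2, named after its values were seen, rose in thalamus at 0.71 ± 0.18 (SE, limma adjusted p = 0.0099) and in spinal cord at 0.54 ± 0.18 (SE, limma adjusted p = 0.0463). The thalamus call was lost without mouse 2, 3 or 4. In spinal cord the limma adjusted p was 0.0769 with the mouse as a block, and the call was lost in 17 of 25 other settings, with a limma adjusted p from 0.0283 to 0.294 over all of them. Epha5 passed in neither. The plot of members by library shows 12 of the genes.

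**Figure D3:**
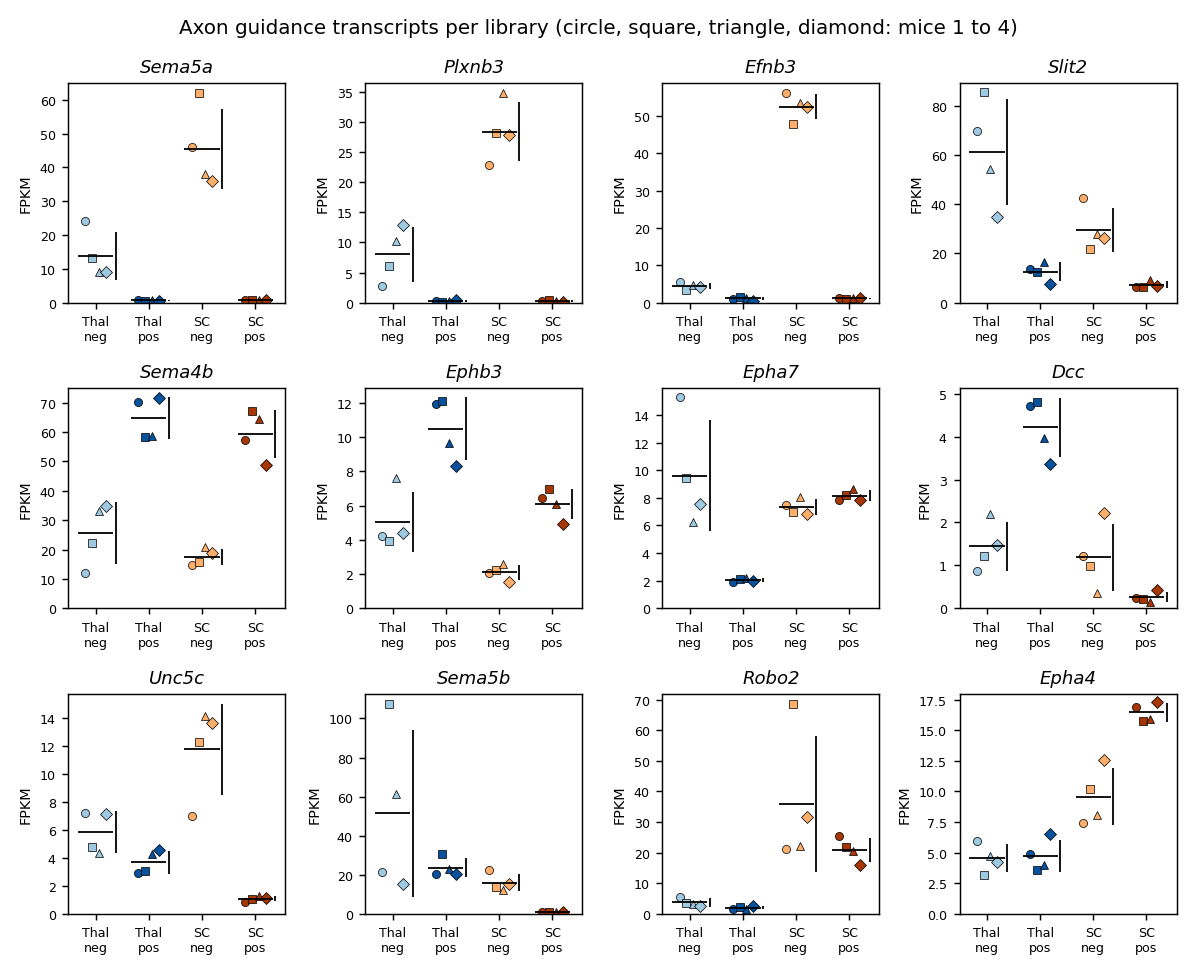
FPKM of 12 guidance genes in each library of the negative and positive gates of thalamus and spinal cord, on linear axes. Points are libraries with shapes for mice 1 to 4, horizontal lines are means and vertical lines SD (n = 4). Sema5a, Plxnb3 and Efnb3 were highest in negative spinal cord libraries and low in positive ones, and Sema4b and Ephb3 were higher in every positive library than in the negative libraries of the region.

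Whether the gate difference itself differed between the regions was tested directly. Of the 56 members 8 passed (14.3%), 1 with a higher and 7 with a lower value in spinal cord, where 2.56% of all features were called, 1.13% higher and 1.43% lower. Sema3c and Sema3d are among the 7 and belong to the 13. The largest tested difference was that of Efnb3, -3.22 ± 0.25 (SE, limma adjusted p = 5.54e-06), followed by Unc5c at -2.04 ± 0.32 (SE, limma adjusted p = 0.00336). Dcc had -1.85 ± 0.34 (SE, limma adjusted p = 0.00946), Plxnb3 -1.84 ± 0.45 (SE, limma adjusted p = 0.043) and Sema5a -1.70 ± 0.37 (SE, limma adjusted p = 0.0234). Epha7 had the 1 positive value, 1.86 ± 0.29 (SE, limma adjusted p = 0.00296).

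For Efnb3, Plxnb3 and Sema5a the positive libraries of both regions were about equally low, and the negative ones were higher in spinal cord. Oligodendrocyte marker sums also differed between the negative libraries of the regions, at 435 to 919.6 and 3251 to 3446 FPKM. In the same test 6 of the 10 oligodendrocyte, 3 of 7 precursor and 1 of 8 endothelial and mural markers were called lower. Ependymal markers went the other way, with 5 of 8 called higher, and 0 astrocyte, neuron or microglia markers were called. The part of these cells was not tested. Plxnb3 had a limma adjusted p of 0.0513 with the mouse as a block and lost its call in 20 of 25 other settings, with a limma adjusted p from 0.0139 to 0.22 over all of them. The Sema5a call was lost without mouse 2, 3 or 4 and without the positive spinal cord library of mouse 1, 2 or 3 or the positive thalamus library of mouse 1 or 3. Calls were also lost without mouse 1, 2 or 4 for Dcc, without mouse 2, 3 or 4 for Unc5c and without mouse 2 or 4 for Epha7. The number of calls was 6, 1, 3 and 1 without mice 1 to 4. It was 5 without the negative spinal cord library of mouse 2 or that of mouse 4. These counts too are given without the share of all features called in the same fits.

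The regions were then compared within each gate. In negative libraries Efnb3, Robo2, Sema3a, Ephb6, Plxnb3 and Sema5a were higher in spinal cord, and Plxnb2, Slit2, Ephb3 and Nrp1 were lower. In positive libraries Robo2, Epha4, Epha7 and Ntn1 were higher in spinal cord, and Sema5b, Dcc, Unc5c and Plxna4 were lower. Negative libraries gave 20 calls of 56 (35.7%), 16 higher and 4 lower, against 9.81% of all features, 5.27% higher and 4.54% lower. Positive libraries gave 9 calls (16.1%), 5 higher and 4 lower, against 6.1% of all features, 4.22% higher and 1.88% lower. Among these 5 is Unc50, which is not a guidance receptor. It had a log2 fold change of 0.94 (limma adjusted p = 0.00666), a call lost without mouse 3 or 4. Of the 16 higher in negative spinal cord libraries, 5 belong to the 13.

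All 10 oligodendrocyte and 4 of 7 precursor markers were called higher, and 6 of 8 ependymal markers lower, in negative spinal cord than in negative thalamus libraries. In positive libraries 1 of 10 oligodendrocyte markers and 5 of 10 astrocyte markers were called higher in spinal cord, and 1 astrocyte marker lower. Their part in the regional results was not tested. The region comparisons use the libraries of the gate comparisons, so their values stand side by side and do not support each other.

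Robo2, the Slit receptor, was higher in spinal cord in both gates. Negative and positive spinal cord libraries held 21.3, 68.6, 22.1 and 31.6 FPKM and 25.4, 22, 20.4 and 15.8 FPKM. The thalamus libraries of the same gates held 5.54, 3.67, 3.06 and 2.51 FPKM and 1.61, 2.28, 1.51 and 2.52 FPKM. Every spinal cord library was above every thalamus library, at 2.85 ± 0.32 (SE, limma adjusted p = 3.81e-05) in the negative and 2.87 ± 0.32 (SE, limma adjusted p = 5.13e-05) in the positive gate. Robo1, with group means of 12.3 to 17 FPKM, passed in neither, at 0.21 ± 0.14 and 0.45 ± 0.14.

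Efnb3 differed by region in the negative gate, at 3.30 ± 0.18 (SE, limma adjusted p = 2.36e-08), while its value in the positive gate was 0.08 ± 0.18 (SE, limma adjusted p = 0.903). Sema5a had 1.72 ± 0.26 (SE, limma adjusted p = 0.000585) in negative and 0.01 ± 0.26 (SE, limma adjusted p = 0.992) in positive libraries. Plxnb3 had 1.85 ± 0.32 (SE, limma adjusted p = 0.00142) and 0.02 ± 0.32 (SE, limma adjusted p = 0.993). In all 3 the negative libraries of the regions were separate and the positive ones overlapped. Sema3a was higher in negative spinal cord libraries, at 2.59 ± 0.49 (SE, limma adjusted p = 0.00303), and had 1.18 ± 0.49 (SE, limma adjusted p = 0.203) in positive ones. Ephb6, an Eph receptor without kinase activity, was named after its values were seen and had 2.23 ± 0.43 (SE, limma adjusted p = 0.00345) in the negative gate.

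In the positive gate Sema5b had the largest regional difference, -3.73 ± 0.45 (SE, limma adjusted p = 0.000114), and the values given above did not overlap. Dcc was lower in positive spinal cord than in positive thalamus libraries, at -2.04 ± 0.24 (SE, limma adjusted p = 0.000106), and so was Unc5c, at -1.16 ± 0.23 (SE, limma adjusted p = 0.00631). The Unc5c call was lost without mouse 2, 3 or 4. In negative libraries Dcc had -0.20 ± 0.24 (SE, limma adjusted p = 0.691), and Unc5c was higher in spinal cord, at 0.88 ± 0.23 (SE, limma adjusted p = 0.0244), a call lost without mouse 2, 3 or 4, without the negative spinal cord library of mouse 2, 3 or 4 or the negative thalamus library of mouse 2 or 3 and in a fit of the compared groups alone. Plxna4, a plexin that pairs with neuropilins and named after its values were seen, was lower in the positive gate at -0.81 ± 0.18 (SE, limma adjusted p = 0.0125), a call lost without mouse 2, 3 or 4.

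Epha4 was higher in spinal cord in both gates, at 0.93 ± 0.21 (SE, limma adjusted p = 0.00951) and 1.63 ± 0.21 (SE, limma adjusted p = 0.000177). The first of these calls was lost without mouse 2, 3 or 4 and in a fit of the compared groups alone. Epha7 was higher in positive libraries, at 1.58 ± 0.20 (SE, limma adjusted p = 0.000205), and had -0.28 ± 0.20 (SE, limma adjusted p = 0.468) in negative ones. Ntn1, the main secreted netrin and named after its values were seen, averaged 6.66 FPKM in positive spinal cord and 2.66 FPKM in positive thalamus libraries, at 1.09 ± 0.27 (SE, limma adjusted p = 0.0251). That call was lost without mouse 2, 3 or 4 and without the positive spinal cord library of mouse 2 or 3 or the positive thalamus library of mouse 2, 3 or 4.

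Plxnb2, a receptor of class 4 semaphorins, was at 8.81, 24.9, 14.5 and 17.6 FPKM in negative thalamus and 6.56, 7.2, 7.05 and 7.88 FPKM in negative spinal cord libraries. These did not overlap, at -1.01 ± 0.23 (SE, limma adjusted p = 0.0103), and the call was lost without mouse 2, 3 or 4 and in a fit of the compared groups alone. Positive libraries held 9.41, 9.22, 7.33 and 9.26 FPKM and 10.2, 10.2, 9.3 and 8.46 FPKM. Ephb3 was lower in negative spinal cord libraries at -0.94 ± 0.20 (SE, limma adjusted p = 0.0083), a call lost without mouse 3 or 4 and in a fit of the compared groups alone. Slit2 was lower at -0.99 ± 0.29 (SE, limma adjusted p = 0.042), with overlap, and lost its call in 17 of 26 other settings, with a limma adjusted p from 0.0112 to 0.29 over all of them. Nrp1 was lower at -0.90 ± 0.25 (SE, limma adjusted p = 0.0325), a call lost without mouse 2, 3 or 4, without the negative spinal cord library of mouse 2, 3 or 4 or the negative thalamus library of mouse 1 or 4 and in a fit of the compared groups alone. Ephb1 and Unc5a were higher in the negative gate, at 0.88 ± 0.25 and 1.30 ± 0.36, and with the mouse as a block their limma adjusted p was 0.0511 and 0.0518. Sema4d in the negative gate and Plxnc1, a plexin of the nervous and immune systems, in the positive gate did not pass as fitted (limma adjusted p = 0.069 and 0.0517) and did with that block (0.0478 and 0.0206).

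The number of calls between the regions depended on the libraries used. In the negative gate it was 15, 8, 6 and 7 without mice 1 to 4, and 12 and 13 without the negative spinal cord library of mouse 2 and of mouse 4. In the positive gate it was 9, 6, 5 and 5 without mice 1 to 4. Fitted on the compared groups alone it was 8 in the negative and 23 in the positive gate. The share of all features called in these refits is not given here, so the changes in number are no result about the members. After median-of-ratios rescaling, 58.5% of all features called in the positive gate were higher in spinal cord, against 69.2% before, and the members were 5 higher and 6 lower. The plot of regional differences shows the members in both gates.

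**Figure D4:**
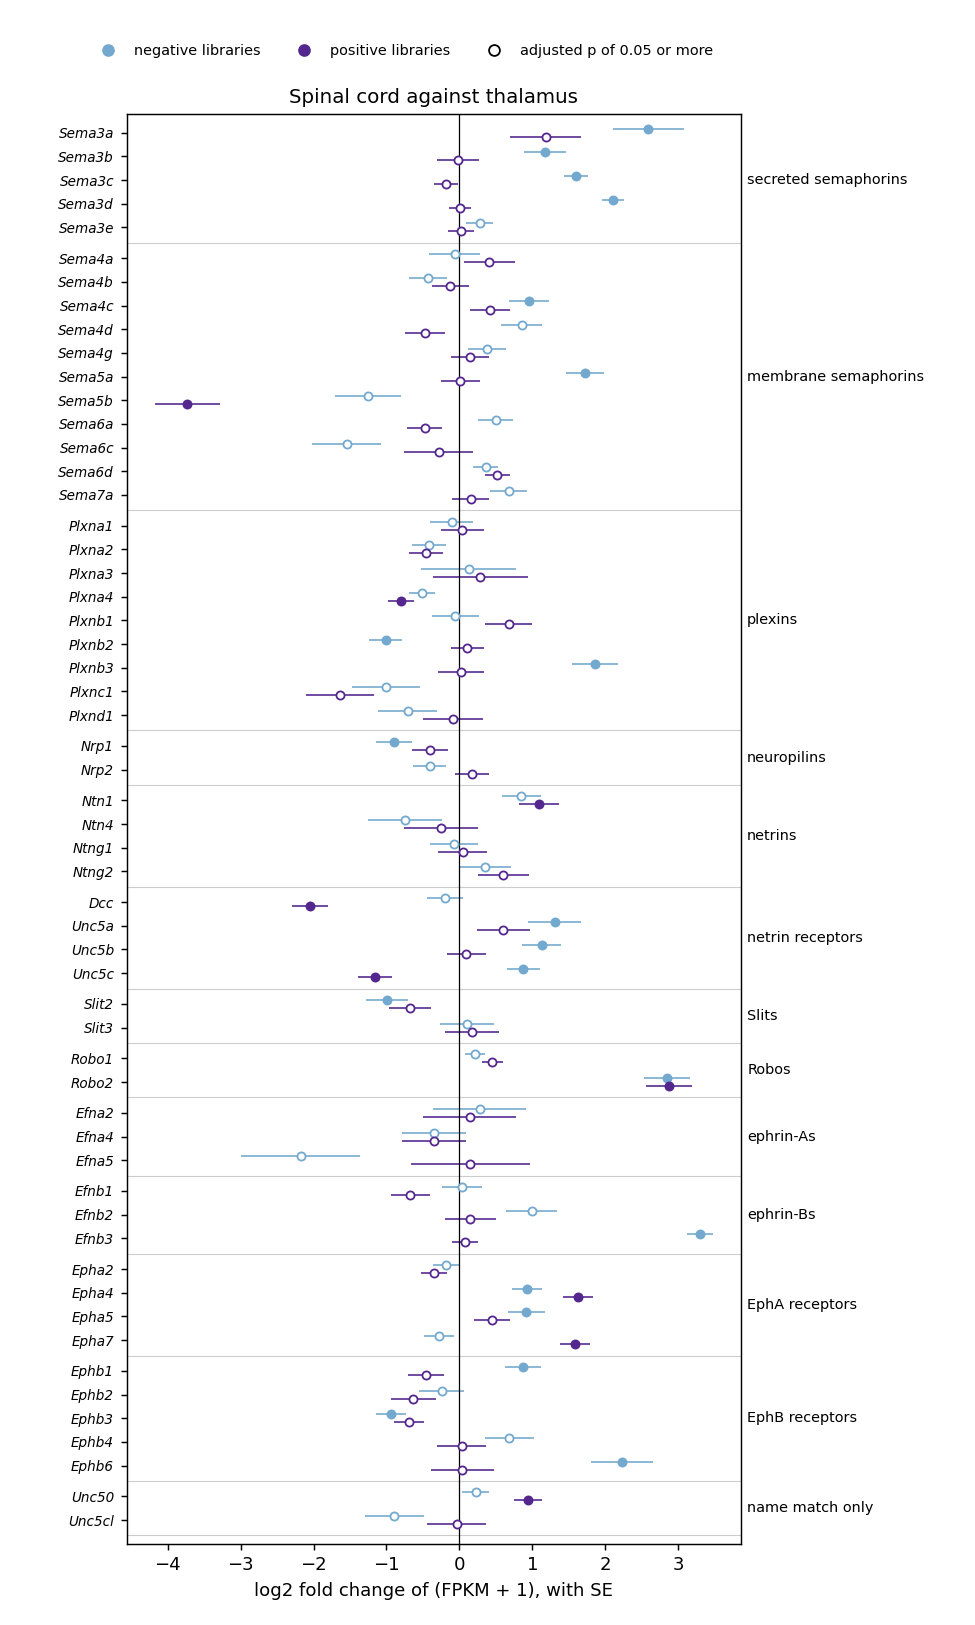
Log2 fold change of (FPKM + 1), spinal cord against thalamus, with its SE for the 56 members by family in negative and positive libraries (n = 4 libraries a group). Filled points have a limma adjusted p under 0.05. The points of the 13 members that would not have passed the expression rule without their highest group are descriptions. Robo2 lay at 2.85 and 2.87 in the gates, while Efnb3 lay at 3.30 in negative and 0.08 in positive libraries.

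Genes that carry these signals inside the cell, or assist the receptors, were counted from a list of 52 symbols with 49 features tested. In thalamus 4 were higher and 17 lower (42.9%), beside 25.2% of all features. In spinal cord 5 were higher and 16 lower (42.9%), beside 19.6% of all features. The list was not screened for genes that would not have passed the expression rule without their highest group. Draxin, for instance, reached 1 FPKM in negative thalamus libraries alone, and Dscam in negative spinal cord libraries alone. The counts of the list are therefore descriptions. The median log2 fold change of the list was -0.32 and -0.45, beside 0.06 and 0.09 over all features. Chn2, a Rac-inactivating chimaerin, had -2.51 ± 0.28 (SE, limma adjusted p = 1.82e-05) in thalamus and -5.08 ± 0.28 (SE, limma adjusted p = 1.19e-08) in spinal cord. Dpysl3, of the collapsin response mediator family, had -1.81 ± 0.22 (SE, limma adjusted p = 4.3e-05) and -2.53 ± 0.22 (SE, limma adjusted p = 1.49e-06).

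Mical2, an actin-oxidising enzyme of the Mical family of semaphorin effectors, rose at 0.89 ± 0.21 (SE, limma adjusted p = 0.00686) and 1.78 ± 0.21 (SE, limma adjusted p = 3.14e-05), and its thalamus call was lost without mouse 4. Vav3 rose at 1.64 ± 0.29 (SE, limma adjusted p = 0.000941) and 0.95 ± 0.29 (SE, limma adjusted p = 0.0315). In spinal cord its limma adjusted p was 0.0577 with the mouse as a block, and the call was lost in 12 of 26 other settings, with a limma adjusted p from 0.00693 to 0.157 over all of them.

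The authors' deposited table of positive against negative libraries, with 444 rows, holds 3 of the members. Sema5a, Efnb3 and Plxnb3 are not among them. It gives a single log2 fold change per gene, with no separate value for each region. The limma values above are per region, so the sizes are not directly comparable. In the authors' deposited table Sema4b had a log2 fold change of 1.37 with a standard error of 0.229, Sema4a of 1.21 with 0.247 and Sema6a of -2.01 with 0.199. The authors' deposited table gives them adjusted p-values of 3.95e-08, 1.07e-05 and 5.96e-22.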

How the data were processed

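RNA of sorted astrocytes was measured in 16 libraries from 4 mice. Per the submitters' processing notes, TopHat2 2.0.11, Bowtie2 2.2.3, HTSeq 0.6.1p1, Cufflinks, Cuffnorm, FastQC and DESeq2 were used with GRCm38, in roles that the sources used here do not state. The authors deposited FPKM values per feature. Their comparison table holds, per the file headers, mean FPKM per group, a log2 fold change and its error, a test score, p-values and a mean signal.

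Here limma 3.58.1 (R 4.3.3) was fitted to log2(FPKM + 1) of the 16340 features that reached 1 FPKM in 4 or more libraries, with 1 coefficient per group, a trended prior and Benjamini-Hochberg adjustment over all features. The scale understates changes of weakly expressed genes. The fit was tested on simulated data. There were 5 comparisons. No symbol was given for 16252 features, and mitochondrial transcripts made up 43.7% to 73.9% of a library's FPKM. The share was 56.7% to 73.9% in negative and 51.3% to 56.7% in positive thalamus libraries. In spinal cord it was 46.7% to 71.8% in negative and 43.7% to 49.2% in positive libraries. No 2 libraries were identical. Coordinates are from GENCODE and promoters from RefSeq GRCm38.p6; the motifs and printed promoters were chosen after the values were seen.

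The members and lists were chosen with earlier results of these data known. Named by rule were Sema5a, Efnb3 and, for each comparison of 2 groups, the 3 called members with the largest change in each direction, provided all 4 mice moved alike and the group with more RNA averaged 2 FPKM or more; 2 per direction were named for the difference between regions and for effector genes in each gate comparison. Other members were named after their values were seen. Mouse numbers pair the libraries, since a number marks 1 animal in the labels; deviations from group means had a mean correlation of 0.036 over 24 same-mouse pairs. Alternatives were the mouse as a block, a pseudocount of 0.1, no filter or 5 FPKM, median-of-ratios rescaling, only the groups compared, and leaving out each mouse or library.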

Additional observations from a re-analysis of the deposited data

Results flagged for a closer look

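Among 72 groups of 4 values of the members given per library, 6 held a library far from the other 3. For normally distributed values chance gives about 1 in 20. Whether FPKM values follow that distribution was not tested, so 6 is not shown to exceed chance. Efna5 was at 53.2 FPKM in the negative thalamus library of mouse 1, with the next at 6.50, and at 7.77 FPKM in the negative spinal cord library of mouse 3, with the next at 0.21. Sema3a was at 1.60 FPKM in the positive thalamus library of mouse 4 and at most at 0.211 in the others. Ephb3 was at 7.63 FPKM in the negative thalamus library of mouse 3, above 4.42. Plxnb2 was at 7.33 FPKM in the positive thalamus library of mouse 3, below 9.22, and Slit2 was at 9.33 FPKM in the positive spinal cord library of mouse 3, above 6.71.

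The gate difference differed between the regions by the direct limma test for 6 members that did not owe their place to 1 group. The value, spinal cord minus thalamus, was -3.22 for Efnb3, -2.04 for Unc5c, -1.85 for Dcc, -1.84 for Plxnb3, -1.70 for Sema5a and 1.86 for Epha7. For Dcc the mean changes had opposite signs in the regions, 1.11 in thalamus and -0.73 in spinal cord.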

How the results depend on the processing

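Depth is unknown for FPKM values, so no counting error could be given. No called difference of a named member or effector gene changed direction in up to 26 other settings. Of 69 such differences, 41 kept their call in every setting that could be fitted and 28 lost it in at least 1. With the mouse as a block the members called numbered 20, 22, 19, 10 and 7 (thalamus gate, spinal cord gate, negative regions, positive regions, difference of the gates), against 19, 23, 20, 9 and 8, and of the called differences of named genes the block ended 6, each given above with its adjusted p. It added 5, those of Sema4a, Nrp1, Sema3a, Sema4d and Plxnc1. With a filter of 5 FPKM 32 members were left, and 11, 15, 12 and 4 were called in the thalamus gate, the spinal cord gate, the negative regions and the difference. Fitted on the groups compared alone, 8 and 23 members were called between the regions in the negative and positive gate; the cause was not tested. Leaving out mice or libraries gave 11 to 19 calls in the thalamus gate, 13 to 25 in the spinal cord gate, 6 to 19 and 5 to 11 between the regions, and 1 to 11 for the difference. The effector list gave 13 to 22 and 11 to 24 calls. For none of these refits is the share of all features called given here. The counts therefore describe the fits and are no result about the members or lists. Among marker lists, astrocyte calls in the thalamus were 2 to 5, and 3 on the groups compared alone. Endothelial calls were 1 to 4 in the thalamus and 1 to 3 in the spinal cord, with 1 and 0 under the 5 FPKM filter and 1 in the thalamus with no filter or on the groups compared. Microglia calls were 0 to 2 and 0 to 1, with 0 under the 5 FPKM filter in both regions, 0 on the groups compared, and 2 with the mouse as a block or after rescaling.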
